A study of Mus musculus with 9 samples.

Results

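The Kruppel-like factors are zinc finger transcription factors, and 9 of their genes (Klf2, Klf3, Klf4, Klf6, Klf7, Klf9, Klf10, Klf11 and Klf13) were followed here. They were taken by symbol from the gene count table, in which they are 9 of 53801 genes, and all 9 were among the 12538 protein-coding genes with enough counts to be tested. The counts come from RNA sequencing of CD11b+ myeloid cells that were sorted out of hemispheres bearing tumors in male C57BL/6J mice, 10 to 12 weeks old at the start, that carried GL261 luc+ tdT+ gliomas, a syngeneic mouse glioma line tagged with luciferase and tdTomato. Mice of the OAT-1746 group (2 libraries) received this arginase 1/2 inhibitor by gavage at 50 mg/kg in 2 doses a day from day 1 after implantation. The anti-PD-1 group (2 libraries) received the checkpoint antibody at 2.5 mg/kg into the peritoneum on days 8, 10, 12 and 14, the COMB group (3 libraries) received both agents, and the CTR group (2 libraries) received saline as vehicle by gavage. What the antibody-only mice received by gavage was not stated in the sources used here, and the day of collection was given as 28 in the methods and as 21 in a figure legend. In the labels, the treatment of the second anti-PD-1 library (replicate 2) is written with a different target, PD-2, and its group was taken from its title. Replicates were described as biological, and the 9 libraries held between 13048075 and 18796479 counts.

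Kruppel-like factors bind CACCC and GC-rich elements through a carboxy-terminal run of zinc fingers, while their amino-terminal parts recruit different partners. Klf2, Klf4, Klf6 and Klf7 belong to the activator subgroup, Klf3 recruits the corepressor CtBP, and Klf9, Klf10, Klf11 and Klf13 recruit Sin3. In myeloid cells Klf2 is known to restrain inflammatory activation, Klf4 to support monocyte differentiation, and several members are induced within minutes to hours of a stimulus.

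OAT-1746 replicate 2 stood apart from the other libraries. The summed level of 9 monocyte/macrophage markers was 8291 and 7144 CPM in CTR, 5343 and 811 in OAT-1746, 6190.5 and 8246 in anti-PD-1 and 5394, 7910.1 and 8352 in COMB, and that of 10 microglia markers was 13009 and 20707 CPM in CTR, 27242 and 34173 in OAT-1746, 19429 and 15783 in anti-PD-1 and 23801, 17841 and 16736 in COMB. OAT-1746 replicate 2 was thus lowest for the monocyte/macrophage markers and highest for the microglia markers, and member calls that compare groups with OAT-1746 are also given without it. In sorted bulk cells, a change in the share of a cell type and a change in the RNA per cell cannot be told apart.

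Compared per length, as CPM per kb of exon (RPKM), Klf2 and Klf6 made up most of the summed level of the 9 genes in every library. Klf2 held between 38.4% and 61.4% of that sum and Klf6 between 26.3% and 41.9%, whereas Klf9 held at most 0.5%. The summed level was 304 and 273 RPKM in CTR, 489 and 1089.9 in OAT-1746, 429 and 506 in anti-PD-1, and 280.1, 283 and 282 in COMB. It was highest in OAT-1746 replicate 2, and the anti-PD-1 libraries lay between CTR and that library.

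**Figure D1:**
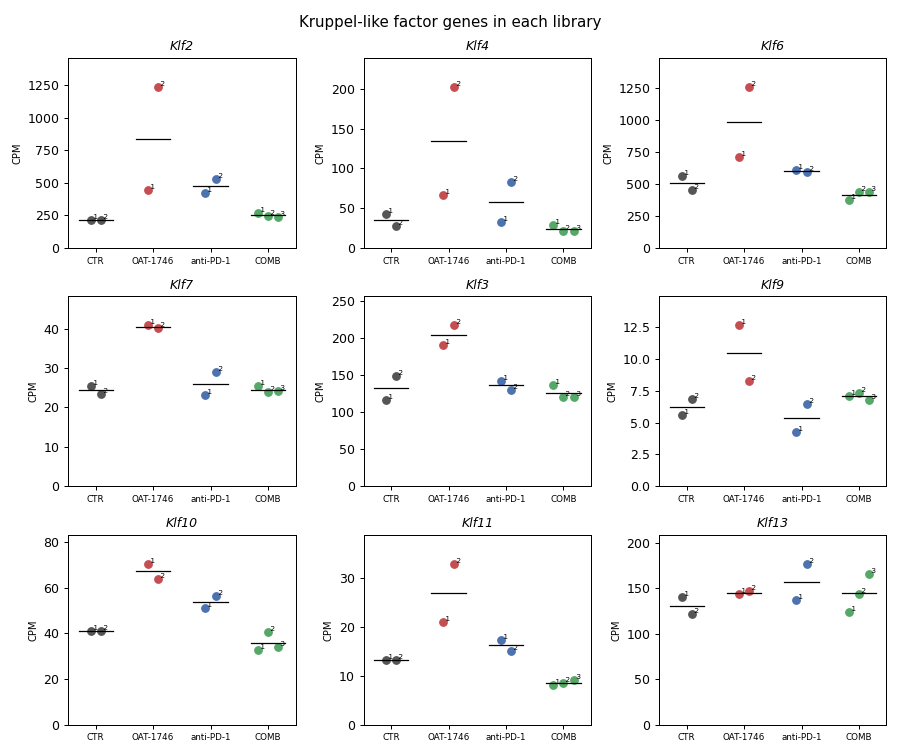
Level of each Kruppel-like factor gene in the 9 libraries, in TMM-scaled CPM (counts relative to library size), with points for libraries (small numbers give the replicate) and lines for group means. The OAT-1746 libraries lie above both CTR libraries for each of the 9 genes, and replicate 2 reaches 1235 CPM for Klf2.

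In the activator subgroup, Klf2 stood at 216 and 212 CPM in the CTR libraries, 442 and 1235 in OAT-1746, 422 and 529 in anti-PD-1 and 265, 242 and 238 in COMB. Both OAT-1746 libraries and both anti-PD-1 libraries lay above all CTR and COMB libraries, and OAT-1746 replicate 2 held 2.79 times the level of replicate 1. Klf4 stood at 42 and 27.6 CPM in the CTR libraries, 67.1 and 203 in OAT-1746, 32.9 and 82.5 in anti-PD-1 and 28.3, 20.6 and 21.1 in COMB. The OAT-1746 libraries did not overlap with CTR or COMB, but anti-PD-1 replicate 2 lay above OAT-1746 replicate 1. Klf6, an early response factor in many cell types, stood at 560.2 and 453 CPM in the CTR libraries, 711 and 1257 in OAT-1746, 611 and 595 in anti-PD-1 and 369.8, 438 and 434 in COMB. Its OAT-1746 libraries were above every other library, and its COMB libraries were below every other library. Klf7, known best from neurons, stood at 25.5 and 23.4 CPM in the CTR libraries, 40.9 and 40.1 in OAT-1746, 23.1 and 29 in anti-PD-1 and 25.5, 24 and 24.2 in COMB. Here the OAT-1746 libraries nearly coincided, above all others.

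Klf3, the CtBP-binding repressor, stood at 117 and 149 CPM in the CTR libraries, 190.0 and 217 in OAT-1746, 142 and 130.0 in anti-PD-1 and 136, 120.2 and 121 in COMB. Only the OAT-1746 libraries were apart from the rest, and the other 7 libraries overlapped across groups. Among the Sin3-binding members, Klf11 stood at 13.2 and 13.3 CPM in the CTR libraries, 20.9 and 32.8 in OAT-1746, 17.4 and 15 in anti-PD-1 and 8.01, 8.58 and 9.07 in COMB. The COMB libraries were the lowest and the OAT-1746 libraries the highest, with no overlap between any pair of groups. Klf10, an early gene of the TGF-beta response, stood at 41.3 and 41.2 CPM in the CTR libraries, 70.5 and 64 in OAT-1746, 51.1 and 56.6 in anti-PD-1 and 32.9, 40.7 and 34.2 in COMB. Its groups had the same order as those of Klf11, again without overlap. Klf9, a gene induced by glucocorticoids, stood at 5.59 and 6.88 CPM in the CTR libraries, 12.6 and 8.3 in OAT-1746, 4.25 and 6.42 in anti-PD-1 and 7.12, 7.32 and 6.81 in COMB, where OAT-1746 replicate 1 and not replicate 2 was the highest library. Klf13 stood at 140.4 and 121 CPM in the CTR libraries, 143 and 147 in OAT-1746, 137 and 177 in anti-PD-1 and 124, 143 and 166 in COMB, and its groups overlapped except that both OAT-1746 libraries lay above both CTR libraries by a small margin.

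The promoters of a member with a large difference between groups (Klf2), of the member with the smallest adjusted p between COMB and OAT-1746 (Klf11), and of the member with the least difference (Klf13) are shown for comparison. Promoter entries were found for 8 of the 9 genes in RefSeq (GRCm38.p6), and the bases upstream of both the RefSeq and the GENCODE start are printed 5′ to 3′ on the strand of the gene. Capitals mark the GC box GGGCGG, the CACCC box and the MEF2 motif on either strand, where neighbouring matches can overlap. Klf2 lies on the plus strand (chr8:72318812-72319032), Klf11 on the plus strand (chr12:24651121-24651273) and Klf13 on the minus strand (chr7:63938916-63939165).
Klf2: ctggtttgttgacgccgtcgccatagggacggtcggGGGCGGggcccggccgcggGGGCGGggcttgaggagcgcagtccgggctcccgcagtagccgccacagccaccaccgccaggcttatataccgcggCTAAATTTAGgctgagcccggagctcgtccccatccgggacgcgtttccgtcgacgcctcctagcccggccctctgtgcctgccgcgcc
Klf11: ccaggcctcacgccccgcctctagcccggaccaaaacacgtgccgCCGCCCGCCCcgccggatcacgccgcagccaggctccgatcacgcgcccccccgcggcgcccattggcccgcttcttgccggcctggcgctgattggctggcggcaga
Klf13: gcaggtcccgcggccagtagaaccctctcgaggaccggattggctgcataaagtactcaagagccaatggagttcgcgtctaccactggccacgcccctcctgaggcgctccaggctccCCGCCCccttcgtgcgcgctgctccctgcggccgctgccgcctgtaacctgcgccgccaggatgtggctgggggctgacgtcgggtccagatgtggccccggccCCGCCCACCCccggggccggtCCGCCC
Over the 250 bases upstream of the RefSeq start, which reach beyond the stretches printed for Klf2 and Klf11, Klf2 holds 2 GC boxes, 1 CACCC box and 1 match to the MEF2 motif, Klf11 holds 4 GC boxes, and Klf13 holds 3 GC boxes and 1 CACCC box. In the same window of 32851 promoter entries, 32.7% held a GC box, 52% a CACCC box and 3.2% the MEF2 motif. Of the 8 members with an entry, Klf2 alone held the MEF2 motif in that window.

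OAT-1746 was first compared with CTR, to ask what the arginase inhibitor alone did to these cells. For all 9 members, the lower of the OAT-1746 libraries exceeded the higher of the CTR libraries, a position that 30.8% of tested genes shared. The log2 fold change was 1.97 ± 0.39 (SE) for Klf2, 1.96 ± 0.54 for Klf4, 1.02 ± 0.22 for Klf11, 0.96 ± 0.26 for Klf6 and 0.15 ± 0.19 for Klf13. The median over the members was 0.75, beside 0.01 over all tested genes. None of the members and none of the 12538 genes passed an adjusted p of 0.05 in edgeR's quasi-likelihood test, where the adjusted p was 0.061 for Klf2, Klf7, Klf10 and Klf11. At an unadjusted p under 0.05, 8 members were higher, as were 16.1% of tested genes, and DESeq2 called 7 members higher, beside 8.36% of tested genes. Without OAT-1746 replicate 2, the log2 fold change was 1.06 for Klf2, 0.96 for Klf4, 0.50 for Klf6 and 0.78 for Klf10, so replicate 1 had the same direction with a smaller difference for the first 3 of these genes. In that setting edgeR called 0 members, and DESeq2 called 1 higher (Klf2), beside 0.405% of tested genes. Here and in the later comparisons, leaving out either OAT-1746 library left that group with 1 library, so its spread was taken from the other groups. OAT-1746 replicate 2 on its own held 5.78 times the CTR mean for Klf2 and 5.83 times for Klf4.

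**Figure D2:**
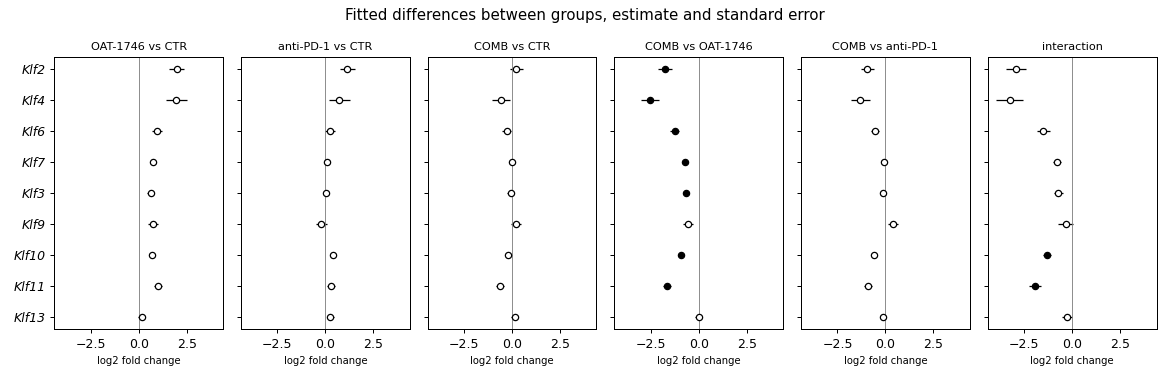
Log2 fold change (horizontal axis) of each Kruppel-like factor gene in 5 comparisons between groups and in the interaction, with bars for the standard error and filled points for an adjusted p under 0.05 in edgeR. Filled points stand for 7 genes in COMB against OAT-1746 and for Klf10 and Klf11 in the interaction.

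COMB was then compared with OAT-1746, where the antibody was the added agent. Here 7 of 9 members were called lower in COMB, beside 8.94% of tested genes called lower and 15.8% called in either direction. The members were chosen with earlier results of these data known, so this share is a description. In 8 of 9 members every COMB library lay below every OAT-1746 library, as for 28.9% of tested genes. The log2 fold change was -2.53 ± 0.48 for Klf4 (adjusted p = 0.023 in edgeR), -1.76 ± 0.34 for Klf2 (0.0239), -1.65 ± 0.20 for Klf11 (0.00849) and -1.25 ± 0.23 for Klf6 (0.0212). Klf10 (-0.90), Klf7 (-0.72) and Klf3 (-0.69) were also called. Klf9 had -0.56 ± 0.25 (adjusted p = 0.14), and Klf13 was near 0 with a sign that changed between scalings. The median over the members was -0.90 and that over all tested genes 0. Without OAT-1746 replicate 2 edgeR called only Klf11 (log2 fold change -1.27, adjusted p = 0.039), beside 0.203% of tested genes called lower, and the log2 fold change was -1.51 for Klf4, -0.82 for Klf2 and -0.77 for Klf6. DESeq2 called 5 members lower in that setting, beside 1.6% of tested genes. In edgeR no member was called without COMB replicate 2, without COMB replicate 3 or with the replicate number as a block. Few genes of any kind were called in these settings, 14, 5 and 2, beside 1979 in the main fit. A fit of these 2 groups alone called 30 genes and no member, and the adjusted p of the 7 genes ran from 0.0627 to 0.0819.

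The difference between the effect of OAT-1746 with the antibody (COMB against anti-PD-1) and without it (OAT-1746 against CTR) was tested as an interaction. These contrasts share no library. Klf11 (log2 -1.94 ± 0.30, adjusted p = 0.0406 in edgeR) and Klf10 (-1.29 ± 0.21, adjusted p = 0.0477) were called lower, beside 0.351% of tested genes. The fitted interaction was larger in size but not called for Klf4 (-3.26 ± 0.72, adjusted p = 0.0817) and Klf2 (-2.91 ± 0.52, adjusted p = 0.0642). With 1 library left out at a time, it ran from -3.85 to -2.23 for Klf4 and from -3.46 to -1.97 for Klf2. DESeq2 called 6 members lower, beside 4.79% of tested genes. Of all tested genes, edgeR called 45 in the interaction in the main fit. It called 0 genes without COMB replicate 2, without COMB replicate 3 or with the replicate block. In edgeR, Klf11 was not called with library size only, neither gene was called with all genes or the replicate block, and no member was called when either CTR library, either anti-PD-1 library, COMB replicate 2 or COMB replicate 3 was left out. Leaving out OAT-1746 replicate 2 left 1 call, Klf2 (-1.97, adjusted p = 0.0163), beside 0.203% of tested genes, with Klf10 and Klf11 both at an adjusted p of 0.063, and DESeq2 then called 5 lower, beside 1.41%. Without OAT-1746 replicate 1 edgeR called 7 lower, beside 8.52% of tested genes.

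**Figure D3:**
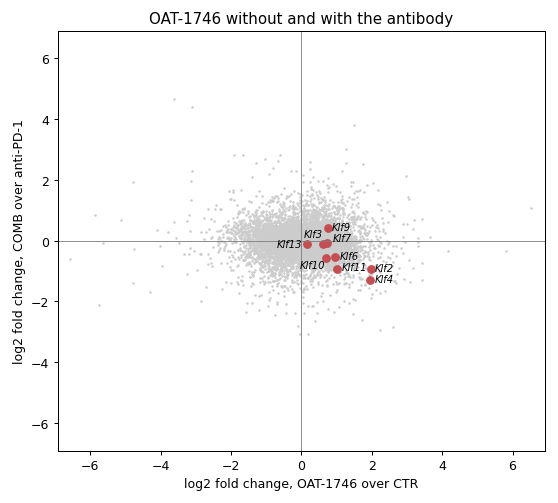
Log2 fold change of OAT-1746 over CTR (horizontal axis) against that of COMB over anti-PD-1 (vertical axis) for the tested genes (grey) and the Kruppel-like factors (red), which share no library between axes. The lower right quadrant holds 8 of the 9 members and 29.3% of tested genes, and Klf9 lies above the horizontal line.

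COMB compared with anti-PD-1 itself gave negative log2 fold changes for 8 of 9 members, the exception being Klf9 at 0.40 ± 0.26. The values were -1.31 ± 0.48 for Klf4, -0.94 ± 0.34 for Klf2 and -0.92 ± 0.20 for Klf11, and in 5 members every COMB library lay below every anti-PD-1 library, as for 16.4% of tested genes. Without anti-PD-1 replicate 2, the library with the differing treatment label, Klf4 had -0.49. No member and no gene was called by edgeR, and DESeq2 called no member. When OAT-1746 replicate 2, which is in neither group, was left out of the fit, edgeR called Klf2 lower (-0.91, adjusted p = 0.0361), beside 0.319% of tested genes, and DESeq2 called 3 members lower, beside 1.49%. At an unadjusted p under 0.05, edgeR had 5 members lower, beside 5.26% of tested genes.

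Anti-PD-1 alone was compared with CTR. In 4 members (Klf2, Klf6, Klf10 and Klf11) both antibody libraries lay above both CTR libraries, as for 20.6% of tested genes. Klf2 had the largest log2 fold change of the members, 1.15 ± 0.38 (adjusted p = 0.951 in edgeR), and the median was 0.26. Neither edgeR nor DESeq2 called a member, and edgeR at an unadjusted p under 0.05 had 2 members higher, beside 3.18% of tested genes. DESeq2 called Klf2 higher when OAT-1746 replicate 2 was left out of the fit, beside 0.467% of tested genes. The sign for Klf4 and Klf7 turned without anti-PD-1 replicate 2, the library with the differing treatment label.

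COMB was next compared with CTR, where the log2 fold changes of the members lay between -0.63 and 0.22. The lowest was that of Klf11 (-0.63 ± 0.21, adjusted p = 0.732 in edgeR), and no member was called by edgeR or DESeq2. At an unadjusted p under 0.05, edgeR had 1 member lower, beside 3.37% of tested genes. Anti-PD-1 compared with OAT-1746 gave no call in edgeR and 6 members lower at an unadjusted p under 0.05, beside 11.8% of tested genes, while DESeq2 called 3 lower (Klf3, Klf7 and Klf9), beside 3.17% of tested genes. Without OAT-1746 replicate 2 edgeR again called 0 members and the log2 fold change of Klf2 turned to 0.09, DESeq2 also called 0, and without OAT-1746 replicate 1 edgeR called 5 lower, beside 6.42% of tested genes. Over the 4 groups together, edgeR's F test called no member (smallest adjusted p = 0.0568, Klf11), 8 members had an unadjusted p under 0.05, as had 27.7% of tested genes, and DESeq2 called 7, beside 17% of tested genes. In the F test edgeR also called 0 without OAT-1746 replicate 2, where DESeq2 called 5, beside 3.51%.

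Of the 8 other Kruppel-like factor genes, 4 had enough counts to be tested. Klf16 stood at 20.9 and 17.5 CPM in the CTR libraries, 30.8 and 38.8 in OAT-1746, 25 and 27.2 in anti-PD-1 and 19.7, 24.4 and 19.4 in COMB. Klf12, a CtBP-binding member, stood at 3.9 and 6.71 CPM in the CTR libraries, 14.1 and 14.4 in OAT-1746, 6.83 and 6.14 in anti-PD-1 and 8.97, 5.41 and 5.25 in COMB. Both were highest in the OAT-1746 libraries and were called lower in COMB than in OAT-1746, with log2 fold changes of -0.72 ± 0.17 (adjusted p = 0.0329 in edgeR) for Klf16 and -1.13 ± 0.29 (adjusted p = 0.0377) for Klf12. Klf8 and Klf15 were tested without a call, Klf1 and Klf5 stayed under 1 CPM in every group mean, and Klf14 and Klf17 had 0 counts. The related Sp factors share the zinc finger domain and GC box binding. All 4 tested Sp genes were called lower in COMB than in OAT-1746, beside 8.94% of tested genes, with Sp4 at -1.17 ± 0.14 (adjusted p = 0.00849), Sp2 at -0.81, Sp3 at -0.54 and Sp1 at -0.50, and Sp4 was also called in the interaction (-1.31 ± 0.21, adjusted p = 0.0495), beside 0.351% of tested genes. By edgeR, none of these 6 genes was called in either test without OAT-1746 replicate 2, though the log2 fold changes of COMB against OAT-1746 kept their sign, from -0.33 for Sp1 to -1.10 for Klf12.

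Partners and regulators of the family were counted in the same comparison of COMB with OAT-1746, in which 8.94% of tested genes were called lower and 6.84% higher by edgeR. Of 10 corepressor and coactivator genes, 1 was called lower (Sin3a, -0.74) and 1 higher (Sin3b, 0.78), so the paralogs of the Sin3 scaffold had opposite signs. Among 15 regulators of Kruppel-like factor genes or proteins, 6 were called lower and none higher, including Mef2a (-1.05), Mef2c (-1.09), Nr3c1, the glucocorticoid receptor (-0.64), and Smad3 (-0.99). Of 12 known target genes, 2 were called, both lower, Smad7 (-1.28) and Eng (-0.57), while Plau (0.01) and Ccnd1 (-0.11) were not. Of 8 glucocorticoid-responsive genes 3 were called lower, Errfi1 (-2.40), Tsc22d3 (-0.97) and Per1 (-1.82), and Ddit4 (0.15) was not. Of 7 heat shock genes 2 were called lower, Dnajb1 (-1.37) and Hspa1a (-3.65). Hspa1a stood at 24.9 and 8.23 CPM in the CTR libraries, 20.7 and 134 in OAT-1746 and between 5.41 and 6.73 in COMB. Smad7 stood at 55.6 and 116 CPM in the OAT-1746 libraries and between 31.3 and 43.2 in COMB, so both values lean on OAT-1746 replicate 2. With lists this short and 15.8% of all tested genes called, the counts for the partner and target lists lie near the share of all genes, and nothing is read from them. Only Errfi1 of these 5 lists was still called by edgeR without OAT-1746 replicate 2.

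Immediate early genes, which are transcribed without new protein synthesis and also respond to tissue dissociation, were counted in the same way. Their list was chosen with earlier results of these data known, so the counts describe it and are no independent test. Of 22 such genes 15 were called lower in COMB than in OAT-1746, beside 8.94% of tested genes, with a median log2 fold change of -1.31, and 6 were called lower in the interaction, beside 0.351%. DESeq2 called 15 lower in COMB than in OAT-1746, beside 11.3% of tested genes. These counts without OAT-1746 replicate 2 were 3 (Egr1, Jun and Ier2) and 6 in edgeR, beside 0.203% of tested genes in each test, and DESeq2 called 13 in the first, beside 1.6%. In that setting the median for COMB against OAT-1746 was -1.23. Egr1 stood at 767 and 851 CPM in the CTR libraries, 2591 and 3730.0 in OAT-1746, 655 and 1117 in anti-PD-1 and 224, 231 and 256 in COMB. Jun stood at 1412 and 1244 CPM in the CTR libraries, 2826 and 4376 in OAT-1746, 1587 and 2184 in anti-PD-1 and 821, 671 and 718 in COMB. As for Klf6 and Klf11, the COMB libraries of both genes were the lowest and the OAT-1746 libraries the highest. Over the 9 libraries, the median Pearson r of the log2 CPM of a member with these 22 genes was 0.831 for Klf11, 0.821 for Klf4, 0.806 for Klf6, 0.730 for Klf10, 0.676 for Klf7, 0.631 for Klf2, 0.613 for Klf3, 0.216 for Klf9 and 0.205 for Klf13, while the median r of a member with all tested genes lay between -0.020 and 0.036. Over the 8 libraries without OAT-1746 replicate 2 it was 0.760 for Klf11, 0.784 for Klf4, 0.725 for Klf6, 0.676 for Klf10, 0.545 for Klf7, 0.418 for Klf2, 0.364 for Klf3, 0.127 for Klf9 and 0.194 for Klf13. The cells were dissociated enzymatically with papain before sorting, and the part of that step in these levels was not tested.

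**Figure D4:**
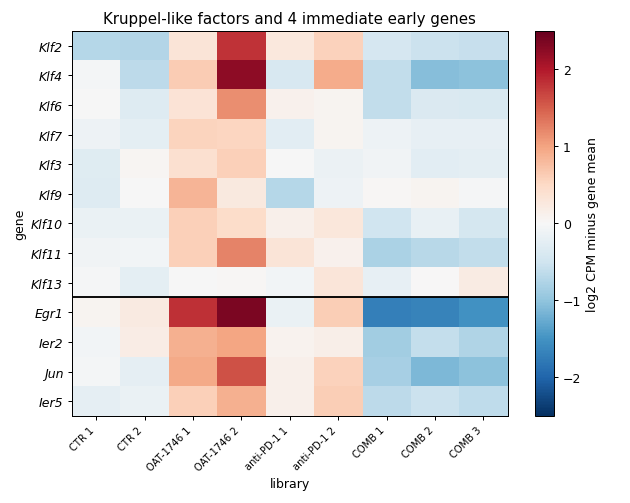
Log2 CPM minus the mean of the gene over the 9 libraries for the 9 Kruppel-like factors (above the line) and for the 4 immediate early genes with the smallest p over the groups (below it). Red is above and blue below the mean of the gene. OAT-1746 columns are red and COMB columns blue for Klf2, Klf3, Klf4, Klf6, Klf7, Klf10, Klf11 and all 4 immediate early genes. For Klf9 the COMB columns lie just below the mean, and for Klf2 the CTR columns lie below those of COMB.

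Likeness between members was described by Pearson r of log2 CPM over the 9 libraries, which share their groups and the OAT-1746 replicate 2 library. Klf6 and Klf11 were the most alike pair (r = 0.958, and 0.940 over the 8 libraries without OAT-1746 replicate 2). Klf2 and Klf4 had r = 0.909 and 0.762 without that library, and Klf3 and Klf13 had r = -0.147. Among all tested genes, those most like Klf2 were Zranb1 (r = 0.988), Zfand5 (0.986) and Smad7 (0.979). The genes most like Klf4 were Pcf11 (0.990), Krit1 and Tsc22d2 (both 0.979), and those most like Klf11 were Map3k8 (0.983), Myc and Elf1 (both 0.979). For Klf6 they were Sirt1, Akap8 and Mbd6, for Klf7 Arid3b, Nrsn1 and Rsbn1l, for Klf3 Mlxipl, 1700017B05Rik and Hps3, for Klf10 Rbak, Trim34a and Oser1, for Klf9 Tldc1, Gtf3c3 and Dio2, and for Klf13 Hbs1l, Psd4 and Tnnt1.

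Cell type markers were set beside the members, since Kruppel-like factors differ in level between myeloid cells, lymphocytes and endothelium. All 10 microglia markers had positive log2 fold changes with an unadjusted p under 0.05 in OAT-1746 against CTR, as had 16.1% of tested genes. By edgeR none of them was called there and 2 were called lower in COMB than in OAT-1746, beside 8.94% of tested genes, while DESeq2 called 8 higher (8.36% of tested genes) and 5 lower (11.3%) in these comparisons. Tgfbi was the most abundant monocyte/macrophage marker. In the monocyte/macrophage list edgeR called 1 of 9 genes higher in COMB than in OAT-1746, beside 6.84% of tested genes, and DESeq2 called 5 lower in OAT-1746 than in CTR, beside 7.37%. Endothelial markers, of interest because Klf2 and Klf4 are abundant in endothelium, summed to 133 and 90.9 CPM in CTR, 129 and 162 in OAT-1746, 179 and 124 in anti-PD-1 and 168, 143 and 165 in COMB. The most abundant of these 9 genes was Flt1. NK cell markers, led by Klrk1, summed to 80.4 and 88.2 CPM in CTR, 114 and 26.3 in OAT-1746, 338 and 203 in anti-PD-1 and 89.9, 175 and 187 in COMB, highest in the anti-PD-1 libraries and lowest in OAT-1746 replicate 2. In anti-PD-1 against CTR their median log2 fold change was 2.20, and 8 of 10 were higher at an unadjusted p under 0.05 in edgeR, beside 3.18% of tested genes. DESeq2 called 3 of them higher there, beside 0.112% of tested genes, and 8 without OAT-1746 replicate 2 (0.467%), the setting in which it called Klf2. T cell markers, led by Cd4 and with Cd3e under 1 CPM in every library, summed to 12.7 and 11.9 CPM in CTR, 13 and 14.8 in OAT-1746, 26.8 and 14.2 in anti-PD-1 and 14.5, 12.3 and 15.8 in COMB. This sum does not stand for each gene, since Cd4 averaged 7.79 CPM in CTR and 5.41 in COMB. The median log2 fold change of the 7 tested T cell genes against CTR was 1.7 in anti-PD-1 and 1.21 in COMB, and edgeR called none of them. The summed neutrophil markers, led by Csf3r, were 323 and 499 CPM in CTR, 532 and 722 in OAT-1746, 383 and 376 in anti-PD-1 and 456, 460.4 and 459.7 in COMB. Here too genes differed, with Csf3r averaging 428 CPM in OAT-1746 and 256 in COMB, but S100a8 31.8 and 39.5. The median log2 fold change of these 10 genes in COMB against anti-PD-1 was 0.83. At an unadjusted p under 0.05, edgeR had 5 of them higher and 1 lower there, beside 1.98% and 5.26% of tested genes. For border-associated macrophages, led by F13a1, the sum was 769 and 877 CPM in CTR, 639 and 609 in OAT-1746, 717 and 719 in anti-PD-1 and 685, 787 and 814 in COMB, while the median log2 fold change of these 7 genes in OAT-1746 against CTR was 0.34, so the sum does not stand for each gene. Dendritic cell markers, led by Ccr7, reached 72.6 and 102 CPM in CTR, 97.7 and 62.6 in OAT-1746, 124 and 94.4 in anti-PD-1 and 92.7, 95.9 and 97.2 in COMB. B cell markers were led by Cd79b, with Ms4a1, Pax5 and Blk under 1 CPM in every library, and summed to 11.9 and 17.2 CPM in CTR, 22.2 and 25.8 in OAT-1746, 19.9 and 10.5 in anti-PD-1 and 18.5, 17 and 21.3 in COMB. Astrocyte markers, led by Slc1a3, summed to 76.3 and 125 CPM in CTR, 162 and 226 in OAT-1746, 110.0 and 98.6 in anti-PD-1 and 184, 136 and 142 in COMB, though the median log2 fold change of the 6 genes in COMB against OAT-1746 was 0.80. Oligodendrocyte markers, led by Cnp, summed to 309.5 and 354 CPM in CTR, 315 and 384 in OAT-1746, 364 and 339 in anti-PD-1 and 475, 291 and 355 in COMB. Erythroid markers, led by Hbb-bs, summed to 5.47 and 10.4 CPM in CTR, 1.11 and 30.7 in OAT-1746, 18.7 and 0.845 in anti-PD-1 and 10.2, 9.17 and 9.57 in COMB. Of 12 S and G2/M phase genes 11 had negative log2 fold changes with an unadjusted p under 0.05 in OAT-1746 against CTR, as had 16.2% of tested genes, and 2 were called higher by edgeR in COMB than in OAT-1746. DESeq2 called 9 of the 12 lower in OAT-1746 than in CTR. Without OAT-1746 replicate 2 edgeR called none of the microglia, monocyte/macrophage or S and G2/M phase genes in either comparison, and DESeq2 called 1 S and G2/M phase gene lower in OAT-1746 than in CTR and 1 monocyte/macrophage gene lower in COMB than in OAT-1746. The part of cell composition in the levels of the Kruppel-like factors was not tested.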

How the data were processed

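Adapters and low-quality bases were removed with Trimmomatic. STAR then placed the reads on mm10, Picard flagged duplicates, and HTSeq-count summed strand-specific read pairs of mapping quality 10 or more for each gene. The values the authors deposited are these raw counts. Of 53801 genes, 53620 matched GENCODE M21 entries, 21890 were protein-coding, and 12538 passed filterByExpr (minimum count 10). Counts were scaled by TMM and tested with edgeR 4.0.16 quasi-likelihood F tests in 1 fit of the 4 groups, with Benjamini-Hochberg adjustment over all tested genes and calls at 0.05. Standard errors are those implied by the F statistic. DESeq2 1.42.0 was run on the same genes as an alternative, and functions were tested on simulated data. The other alternatives were other scalings, no low-count filter, all genes, the replicate number as a block, each library left out and fits of 2 groups. RPKM is CPM per kb of exon union. The members and gene lists were chosen with earlier results of these data known, so their counts beside the share of all genes are descriptions. Named genes are the 9 members, other Kruppel-like and Sp factor genes, up to 4 tested genes of each list with the smallest p over the 4 groups, the most abundant marker of most cell types, and the 3 genes most like each member.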

Additional observations from a re-analysis of the deposited data

Results flagged for a closer look

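In Klf11 and Klf10 the effect of OAT-1746 differed between mice with and without the antibody, by the interaction test of edgeR. The interaction was -1.94 (log2) for Klf11 and -1.29 for Klf10. In the main fit 45 genes were called there. No gene at all was called without COMB replicate 2, without COMB replicate 3 or with the replicate block. OAT-1746 against CTR had log2 fold changes of 1.02 for Klf11 and 0.70 for Klf10, and COMB against anti-PD-1 had -0.92 and -0.58. Neither gene was called in the interaction without CTR replicate 1, CTR replicate 2, anti-PD-1 replicate 1, anti-PD-1 replicate 2, COMB replicate 2, COMB replicate 3 or OAT-1746 replicate 2, with all genes or with the replicate block, and Klf11 was not called with library size only.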

How the results depend on the processing

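Member calls for COMB against OAT-1746 stayed at 7 with DESeq2, both other scalings, no low-count filter and all genes. They fell to 0 in the fit of these 2 groups alone (30 genes). DESeq2 called 7 members for OAT-1746 against CTR (1972 genes, 0 in edgeR) and 3 for anti-PD-1 against OAT-1746 (942 genes, 0 in edgeR). It called 6 for the interaction (1053 genes, 45 in edgeR) and 7 over the 4 groups (2137 genes, 24 in edgeR). For COMB against OAT-1746 it called 3062 genes, beside 1979. Without the low-count filter, 5 members were called for OAT-1746 against CTR (587 genes), 4 for the interaction (146 genes) and 5 over the 4 groups (361 genes). The interaction had 1 call, Klf10, with library size only (24 genes) and 0 with all genes (18 genes). An adjusted p under 0.1, chosen after seeing the data, gave 7 for OAT-1746 against CTR (19.4% of genes), 6 for the interaction (4.39%) and 6 over the 4 groups (4.45%). DESeq2 without OAT-1746 replicate 2, also added after seeing the data, gave 1 for OAT-1746 against CTR, 1 for anti-PD-1 against CTR, 5 for COMB against OAT-1746, 3 for COMB against anti-PD-1, 0 for anti-PD-1 against OAT-1746, 5 for the interaction and 5 over the 4 groups, with between 0.358% and 3.51% of genes called in either direction. The causes were not tested.

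With the replicate block, COMB against OAT-1746 had 0 member calls (2 genes) and the interaction 0. Differences between replicate 1 and replicate 2 of a group correlated from -0.42 (OAT-1746 with COMB) to 0.09 (CTR with OAT-1746) between groups. For CTR with anti-PD-1 the value was -0.33. Libraries with the same number thus did not differ from their partner in the same direction. What else libraries of different groups share was not tested. Crossed pairing, added after seeing the data in fits of 2 groups, gave 1 member call for anti-PD-1 against CTR (0.882% of genes) and 0 for anti-PD-1 against OAT-1746.

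Leaving out each library, calls ranged from 0 to 7 for OAT-1746 against CTR, 0 to 7 for COMB against OAT-1746, 0 to 2 for COMB against anti-PD-1, 0 to 5 for anti-PD-1 against OAT-1746, 0 to 7 for the interaction and 0 to 5 over the 4 groups, and stayed at 0 for anti-PD-1 and for COMB against CTR. The genes called ran over the same settings from 0 to 3617, 5 to 4033, 0 to 52, 0 to 2665, 0 to 2734 and 0 to 2381, of between 12481 and 12918 tested, with the most each time without OAT-1746 replicate 1. A group left with 1 library is assumed to vary like the others. Log2 fold changes whose sign turned ranged as follows, none of them called except Klf2 in anti-PD-1 against OAT-1746 at -1.37 (without OAT-1746 replicate 1). Against CTR, anti-PD-1 ran from -0.09 to 1.25 for Klf4, -0.09 to 0.25 for Klf7, -0.13 to 0.22 for Klf3 and -0.56 to 0.05 for Klf9, and COMB from -0.06 to 0.09 for Klf7 and -0.22 to 0.10 for Klf3. COMB against anti-PD-1 ran from -0.24 to 0.10 for Klf7 and -0.29 to 0.08 for Klf13. Anti-PD-1 against OAT-1746 ran from -1.37 to 0.09 for Klf2 and -0.08 to 0.29 for Klf13, and the interaction from -0.60 to 0 for Klf9. Klf13 in COMB against OAT-1746 ran from -0.11 to 0.06, and was 0.02 with DESeq2, 0.02 with its size factors in edgeR and 0.01 without the filter. In the same comparison Plau ran from -0.25 to 0.14 (-0.02 with library size only), Ccnd1 from -0.33 to 0.18 and Ddit4 from -0.06 to 0.38 (-0.04 with the replicate block). Depth was lowest for Klf9, with 61 to 217 counts a library, and highest for Klf6 and Klf2.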
